A study of Homo sapiens with 2 samples.

Results

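The genes described here are the subunits of the 5 complexes of oxidative phosphorylation that the nucleus encodes, together with C15orf48, a small protein related to the complex IV subunit NDUFA4. They were chosen by symbol alone: NDUF followed by A, B, C, S or V and a digit, SDHA to SDHD, the UQCR prefix, COX with a digit from 4 to 8, the ATP5 prefix, and C15orf48. Of 36601 listed genes, 91 matched. They comprised 82 subunits, 36 of complex I, 4 of complex II, 8 of complex III, 17 of complex IV (NDUFA4 included) and 17 of complex V. The other members were C15orf48 and NDUFA4L2, which are the paralogs of NDUFA4, 3 antisense or divergent transcripts, the inhibitor ATP5IF1, the supercomplex factor COX7A2L, and UQCRHL and ATP5MGL, near-identical copies of UQCRH and ATP5MG.

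Complexes I and II take electrons from NADH and succinate, complex III passes them to cytochrome c, complex IV gives them to oxygen, and complex V uses the proton gradient built on the way to make ATP. NDUFA4 was long counted with complex I and is now placed in complex IV. C15orf48, also called NMES1 or MOCCI, is known as an inflammation-inducible paralog that can take the place of NDUFA4 in complex IV, and its transcript carries the hairpin of the microRNA miR-147b.

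Single-cell RNA sequencing was done on colon organoids differentiated from 1383D6, an established line of human iPS (induced pluripotent stem) cells. The untreated library is CNT. The 3CK library came from organoids given 3 cytokines for 8 days, namely IL-1β, TNF-α and IFN-γ. The title calls this an ulcerative colitis model, and the comparison addresses the response to inflammation. Both groups came through the same differentiation, with activin A, FGF2 and then, in Matrigel, EGF, forskolin, the MEK inhibitor PD98059 and the demethylating agent 5-aza-2'-deoxycytidine among the agents. Each group is 1 library from 1 line. No difference below has a replicate check, no test was made, and each interval is a 95% one that holds for counting error alone.

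After filters, 2487 CNT cells with 101582054 unique molecular identifiers (UMIs) and 1398 3CK cells with 91863865 UMIs were kept, and the median cell held 28895 and 62746 UMIs. Cells with at least 2 EPCAM UMIs per 10000 formed the epithelial class, 1655 CNT and 1016 3CK cells. Cells with at least 5 UMIs per 10000 of COL1A1, COL1A2 and COL3A1 together and under 1 of EPCAM formed the mesenchymal class, 577 CNT and 124 3CK cells, and 255 and 258 cells fell in neither. These classes are ranges of 2 scores, not cell types. Of the epithelial cells, 88 in CNT and 71 in 3CK had EPCAM under 3 per 10000, and 495 and 49 also reached the collagen minimum. Of the mesenchymal cells, 19 in each library had collagens under 7 per 10000. The median EPCAM level was 1083 CPM (UMIs per 1000000 UMIs of a class or cell) in CNT and 881 CPM in 3CK epithelial cells, and the median collagen level was 3442 and 2396 CPM in mesenchymal cells, so the genes that set this class were themselves lower in 3CK. The other epithelial and mesenchymal markers, except KRT8 and KRT18 in CNT, were higher in the class they mark, but the epithelium also carried hepatic markers. TTR, APOA1, APOA2, AFP, ALB and FGB, none of them at 0 in either library, summed to 97809 CPM in CNT and 32117 CPM in 3CK epithelial cells. KRT8 and KRT18, epithelial keratins, stood at 3218 and 4931 CPM in CNT mesenchymal cells, against 3116 and 4311 CPM in CNT epithelial cells. In 3CK they stood at 4023 and 6968 CPM in mesenchymal and 7121 and 10942 CPM in epithelial cells. The cytokine response was present in both classes: CXCL10, an interferon-induced chemokine, stood at 0.316 CPM in untreated and 1786 CPM in treated epithelial cells, and at 1.02 and 2594 CPM in mesenchymal cells.

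In the epithelium, C15orf48 was 9.50-fold higher in 3CK, NDUFA4 was 1.65-fold lower, and the other complex IV subunits together were 1.07-fold lower. C15orf48 stood at 63.3 CPM (95% interval 61.6 to 65.2, 4805 UMIs) in CNT and at 602 CPM (596 to 607, 42185 UMIs) in 3CK epithelial cells. NDUFA4 stood at 1188 CPM (1181 to 1196, 90160 UMIs) and 720 CPM (714 to 726, 50468 UMIs). The log2 ratios of 3CK over CNT were 3.25 (3.20 to 3.29) and -0.72 (-0.74 to -0.71). CPM counts each captured 3′ end once and is not scaled by transcript length, so levels of different genes are set side by side here on that scale. NDUFA4 has processed pseudogenes, and no source used here says how reads shared with them were counted.

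The ratios of these genes can be read against all genes with a mean of at least 10 CPM over both libraries. Of 9159 such genes in epithelial cells, 1.52% had a ratio as high as that of C15orf48 or higher, and 9.83% had a ratio as low as that of NDUFA4 or lower. The median ratio of all genes was 0.07 on the log2 scale, with the middle 50% between -0.27 and 0.39.

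The sum of both transcripts was close in the epithelium of the libraries, at 1252 CPM untreated and 1322 CPM treated (log2 ratio 0.08, 0.07 to 0.09), and that small difference turned to -0.04 when CPM was taken over a total without mitochondrial, ribosomal and the 50 most abundant genes (the smaller total below). Within ranges of the hepatic marker TTR described below, the sum was higher in 3CK, by 0.12 with at least 100 TTR UMIs per 10000, 0.43 with 10 to 100 and 0.31 under 10, and in cycling cells it was lower (-0.19). The make-up of the sum differed more in the pooled class. C15orf48 made up 5.06% (exact binomial interval 4.92 to 5.20) of the pair's UMIs in CNT and 45.5% (45.2 to 45.9) in 3CK. NDUFA4 made up 16.2% of all complex IV UMIs in CNT and 11.2% in 3CK.

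In mesenchymal cells C15orf48 was also higher in 3CK, from a lower start, while NDUFA4 was not lower. C15orf48 stood at 5.19 CPM (4.23 to 6.30, 102 UMIs) in CNT and 189 CPM (180 to 198, 1725 UMIs) in 3CK. That is a log2 ratio of 5.19 (4.90 to 5.49), and 3.52 when each cell had the same weight instead of each UMI. The 266 CNT cells under 10000 UMIs held 7 C15orf48 UMIs, 19.4 CPM, against 4.92 CPM in the deeper CNT cells, and the hepatic marker TTR stood at 25899 CPM in the former and 955 CPM in the latter. Among the 106 3CK mesenchymal cells with at least 10000 UMIs, C15orf48 had a median of 30.3 CPM and a 95th percentile of 787 CPM. The parts of the shallow CNT cells and of this uneven spread in the gap between 5.19 and 3.52 were not tested. NDUFA4 stood at 779 CPM (767 to 791) and 840 CPM (821 to 859), a log2 ratio of 0.11 (0.07 to 0.15) that was -0.0040 with each cell weighted equally. C15orf48 made up 0.662% of the pair in CNT and 18.4% in 3CK, and NDUFA4 held 15.2% and 14.6% of complex IV UMIs. Leukocyte markers (PTPRC, CD3E, CD79A, LYZ and CD68) summed to 27.8 CPM in CNT and 95.3 CPM in 3CK mesenchymal cells, of which CD68 gave 26.7 and 91.4 CPM, PTPRC 0.56 and 3.62 CPM, and CD3E was at 0 in 3CK, and their part in the C15orf48 level was not tested. In epithelial cells the same markers summed to 41.4 and 59.3 CPM.

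Cells of neither class gave 32.3 CPM of C15orf48 in CNT and 550.5 CPM in 3CK, and 532.5 and 651 CPM of NDUFA4. Ordered by level, C15orf48 was highest in 3CK epithelial cells, then in 3CK cells of neither class, 3CK mesenchymal, CNT epithelial, CNT neither and CNT mesenchymal cells. NDUFA4 ran from CNT epithelial cells through 3CK mesenchymal, CNT mesenchymal, 3CK epithelial and 3CK neither to CNT neither. No 2 neighbours in either order had overlapping counting intervals, which do not cover the spread between cultures. Within the CNT library NDUFA4 was higher in epithelial than in mesenchymal cells, by 0.61 on the log2 scale (0.58 to 0.63), and within the 3CK library it was lower, at -0.22 (-0.26 to -0.19).

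**Figure D1:**
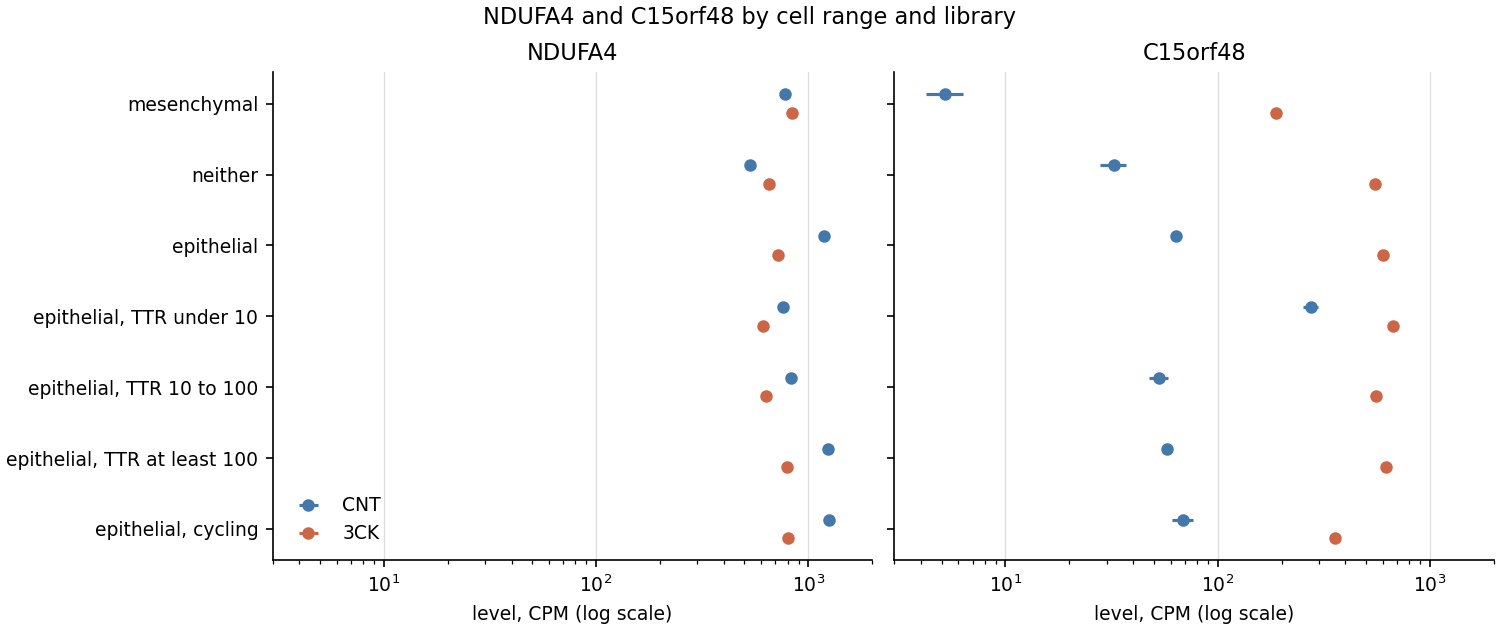
Level of NDUFA4 (left) and C15orf48 (right) in CPM, on a log axis, for CNT (blue) and 3CK (orange) in each class and range of cells. Each point is the summed UMIs of 1 library and its bar the exact 95% Poisson interval. C15orf48 was higher in 3CK in all 7 ranges drawn, and NDUFA4 was lower in 3CK in the 5 epithelial ranges only.

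The sequences below are the microRNA carried by the C15orf48 transcript and its seed match in NDUFA4, shown because both genes are described together here, and no effect of one on the other was measured. C15orf48 lies at chr15:45430610-45433340 and NDUFA4 at chr7:10931943-10940153 in GRCh38.p14, per RefSeq, where their symbols are now COXFA4L3 and COXFA4. The hairpin of miR-147b (chr15:45433050-45433129) lies inside the 3′ UTR of C15orf48, which spans chr15:45433014-45433340 in transcript ENST00000396650.7 of the GENCODE annotation. Capitals mark the seed (bases 2 to 8) of the mature microRNA, from RefSeq, and in the NDUFA4 transcript the 7 bases complementary to it.
hsa-miR-147b-3p: gUGUGCGGaaaugcuucugcu
NDUFA4 3′ UTR site: tccagaagccacatCCGCACAa
The printed stretch lies on the minus strand at chr7:10933573-10933594, the 7 bases in capitals start at base 59 of a 3′ UTR of 1696 bases that counts the stop codon, and an A follows them. CCGCACA was found in the 3′ UTR of 1 of the 82 subunits (1.22%), NDUFA4, and in 439 of 19218 3′ UTRs of canonical transcripts (2.28%). A match is a description of letters. The microRNA itself was not measured, since the libraries count polyadenylated transcripts.

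How many cells carried C15orf48 was compared after thinning every cell to 5000 UMIs, for which 595 CNT and 240 3CK epithelial cells and 257 and 17 mesenchymal cells were too shallow. A C15orf48 UMI was found in 158 of 1060 CNT epithelial cells, 14.9% (exact interval 12.8 to 17.2), and in 491 of 776 3CK epithelial cells, 63.3% (59.8 to 66.7). In mesenchymal cells it was found in 9 of 320 CNT cells, 2.81% (1.29 to 5.27), and in 37 of 107 3CK cells, 34.6% (25.6 to 44.4). At full depth the same cells gave 41.5% and 90.6% in the epithelium and 10.3% and 72.9% in the mesenchymal class, at median depths of 67143, 91186, 52742 and 75388 UMIs per cell. NDUFA4 was found in 94.2% of thinned CNT and 86.6% of thinned 3CK epithelial cells, and in 84.4% and 90.7% of mesenchymal cells. Free RNA can give a cell a UMI of a gene it does not express. The lowest share, 2.81% in CNT mesenchymal cells, is the nearest measure of that background here, and no class free of C15orf48 was at hand in 3CK.

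Among treated epithelial cells C15orf48 was spread unevenly. The 102 thinned cells with 7 or more UMIs, 13.1% of the cells, held 52.5% of its UMIs, and 285 cells had none. In cells with at least 10000 UMIs, the median level was 0 CPM untreated and 251 CPM treated, and the 95th percentile was 308 and 2043 CPM. NDUFA4 was more even, with a median of 1123 CPM in CNT and 672 CPM in 3CK epithelial cells. In treated mesenchymal cells 4 of the 107 thinned cells held 41.3% of the C15orf48 UMIs, and 70 had none.

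The NDUFA4 share of complex IV was compared over cells with different numbers of C15orf48 UMIs. In 3CK epithelial cells with 0, 1, 2 to 3, 4 to 6, and 7 or more C15orf48 UMIs, NDUFA4 held 10.8%, 12.1%, 11.0%, 11.4% and 11.2% of complex IV UMIs. Its level in these cells was 577, 689, 708, 758 and 749 CPM, and the other complex IV subunits summed to 4768, 5011, 5700, 5909 and 5965 CPM. So NDUFA4 and its complex partners were both lowest in the cells without a C15orf48 UMI. The same held for complexes I, III and V, at 6788, 2384 and 5936 CPM in those cells. With 7 or more C15orf48 UMIs they stood at 8398, 2922 and 7392 CPM. Within the TTR range of at least 100, described below, NDUFA4 had no steady rise, at 726, 899, 840, 732 and 747 CPM. Within the range of 10 to 100 it stood at 440, 511, 549, 811 and 740 CPM. The 902 CNT epithelial cells without a C15orf48 UMI had 1140 CPM of NDUFA4, 16.6% of complex IV. In CNT cells with 1 UMI the share was 14.7%, from 98 cells, with 2 to 3 UMIs 10.8%, from 35 cells, with 4 to 6 UMIs 16.0%, from 21 cells, and with 7 or more 10.1%, from 4 cells. The share was thus lower in 3CK at 0, 1 and 4 to 6 UMIs, and not at 2 to 3 or at 7 or more. All cells of a library share its preparation, so these groups of cells are a description and not replicates.

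**Figure D2:**
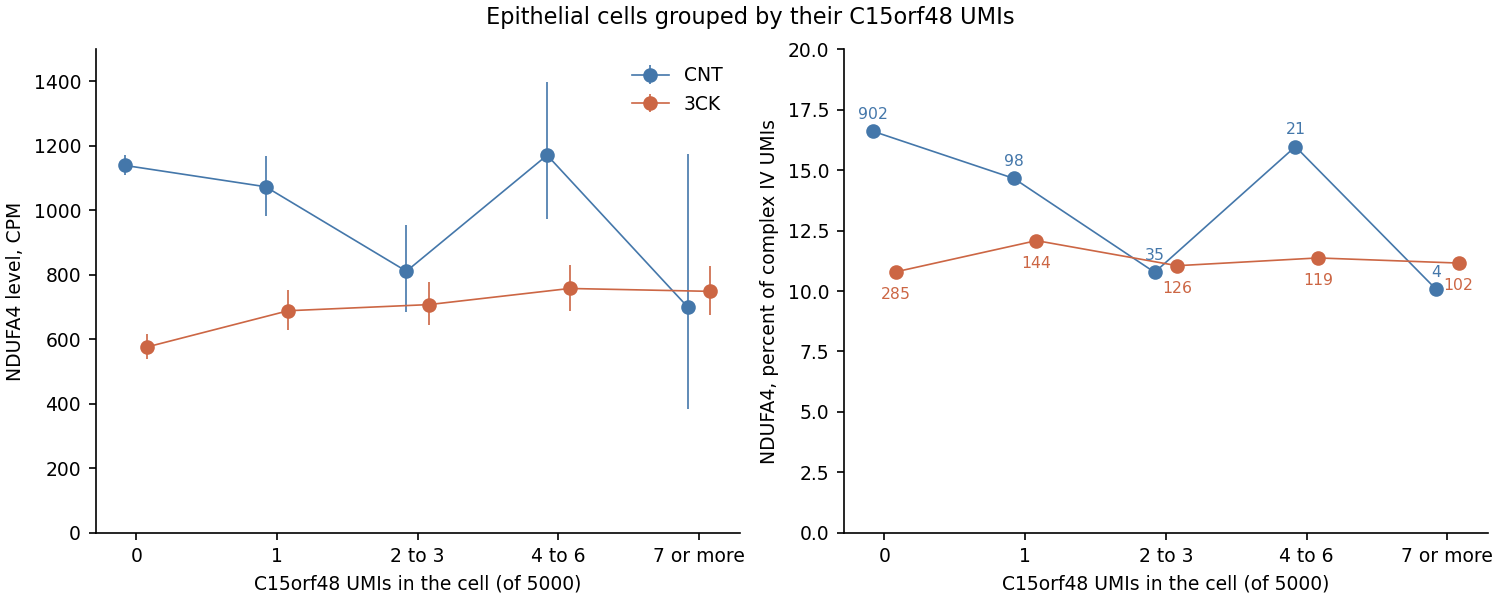
NDUFA4 level in CPM with exact 95% Poisson intervals (left) and NDUFA4 as a percent of complex IV UMIs (right) in epithelial cells grouped by their C15orf48 UMIs out of 5000, CNT in blue and 3CK in orange, with cell numbers beside the points on the right. The 3CK points on the right lie between 10.8% and 12.1%, and the CNT points rest on 902 cells at 0 UMIs and on 4 cells at 7 or more.

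Because the hepatic marker TTR differed between the libraries, the pair was also read in ranges of TTR within the epithelium. In cells with at least 100 TTR UMIs per 10000 (1464 CNT and 515 3CK cells), NDUFA4 stood at 1241 and 795 CPM, a log2 ratio of -0.64, and C15orf48 at 57.6 and 620 CPM, a ratio of 3.43. In cells with 10 to 100 TTR UMIs (169 and 442 cells), NDUFA4 stood at 830 and 631 CPM (-0.40) and C15orf48 at 52.8 and 560 CPM (3.41). The lowest range, under 10, held only 22 CNT and 59 3CK cells. There C15orf48 was already at 275 CPM in CNT, against 672 CPM in 3CK (1.29), and NDUFA4 stood at 759 and 612 CPM (-0.31). The other complex IV subunits had a similar ratio in that range (-0.30), and NDUFA4 held 12.3% of complex IV UMIs in CNT and 12.2% in 3CK. Its share was 16.4% and 11.1% with at least 100 TTR UMIs, and 14.2% and 11.0% with 10 to 100. In cycling epithelial cells (136 and 68), NDUFA4 stood at 1253 and 799 CPM (-0.65) and C15orf48 at 68.4 and 356 CPM (2.38). NDUFA4 was thus lower and C15orf48 higher in 3CK in each of these 4 ranges, and the NDUFA4 level in CNT itself was lower in cells with less TTR. The part of the TTR mixture in the class-wide ratio was not tested beyond these values.

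NDUFA4L2, the other paralog and a hypoxia-inducible gene, was low throughout, at 0.79 CPM in untreated and 0.40 CPM in treated epithelial cells and at 5.75 and 7.90 CPM in mesenchymal cells.

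Summed over each whole class, the nuclear subunits were slightly lower in 3CK epithelial and slightly higher in 3CK mesenchymal cells, but the epithelial ratio was near 0 within the larger TTR ranges. The 82 subunits summed to 26595 CPM in CNT and 24726 CPM in 3CK epithelial cells, which is 2.66% and 2.47% of all UMIs and a log2 ratio of -0.11 (-0.11 to -0.10). In mesenchymal cells they summed to 20857 and 23536 CPM, a log2 ratio of 0.17 (0.17 to 0.18). The median ratio of all genes was 0.07 and -0.10 in these classes, -0.05 in epithelial cells with the smaller total (the subunits -0.22), and 0.08 in mesenchymal cells with TMM scaling (the subunits 0.35). In epithelial cells with at least 100 TTR UMIs per 10000 the subunits summed to 27188 and 27106 CPM, a ratio of -0.0043 where the median gene had -0.07, and with 10 to 100 they summed to 21880 and 22284 CPM (0.03, 0.02 to 0.03). With TTR under 10, which held 22 CNT cells, the ratio was -0.29. Cells of neither class had 15851 CPM in CNT and 20704 CPM in 3CK (0.39).

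Of the 82 subunits, 77 had a mean of at least 10 CPM in epithelial and in mesenchymal cells. The 5 below were COX7B2, COX8C, COX6A2, COX6B2 and COX4I2, tissue isoforms of complex IV. In epithelial cells 49 of the 77 were lower in 3CK, where 43.8% of all genes were lower, and 28 were higher, where 56.2% were. Scaling by the smaller total moved this split to 61 lower and 16 higher, with the median of all genes at -0.05. The counting interval of the ratio lay below 0 for 46, above 0 for 23 and across 0 for 8. This was not counted over all genes, and such intervals are narrow for genes with many UMIs. At least 1.5-fold lower were 4 (COX7A1, NDUFA4, ATP5F1A and NDUFB11), where 12.7% of all genes were, and at least 1.5-fold higher was 1 (NDUFV2), where 15.7% of all genes were. In mesenchymal cells 21 of 77 were lower, where 57.6% of all genes were, and 56 were higher, where 42.4% were. TMM scaling moved this split to 5 and 72, with the median of all genes at 0.08. The smaller total moved it to 29 and 48, with that median at -0.14. Each of these scalings moves all genes of a class by the same amount, and the shares of all genes were not recounted under them. None was at least 1.5-fold lower, where 19.7% of all genes were, and 6 were at least 1.5-fold higher (NDUFB1, COX7A1, NDUFA3, ATP5MD, NDUFA9 and ATP5ME), where 8.93% of all genes were. Scaled to all UMIs, ratios of at least 1.5-fold were thus fewer among the subunits than among all genes in each direction and class. The exception was higher in mesenchymal cells, where 6 of 77 was near the background. These 1.5-fold counts were not repeated under the other scalings, and the genes of the background were not matched to the subunits in level.

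**Figure D3:**
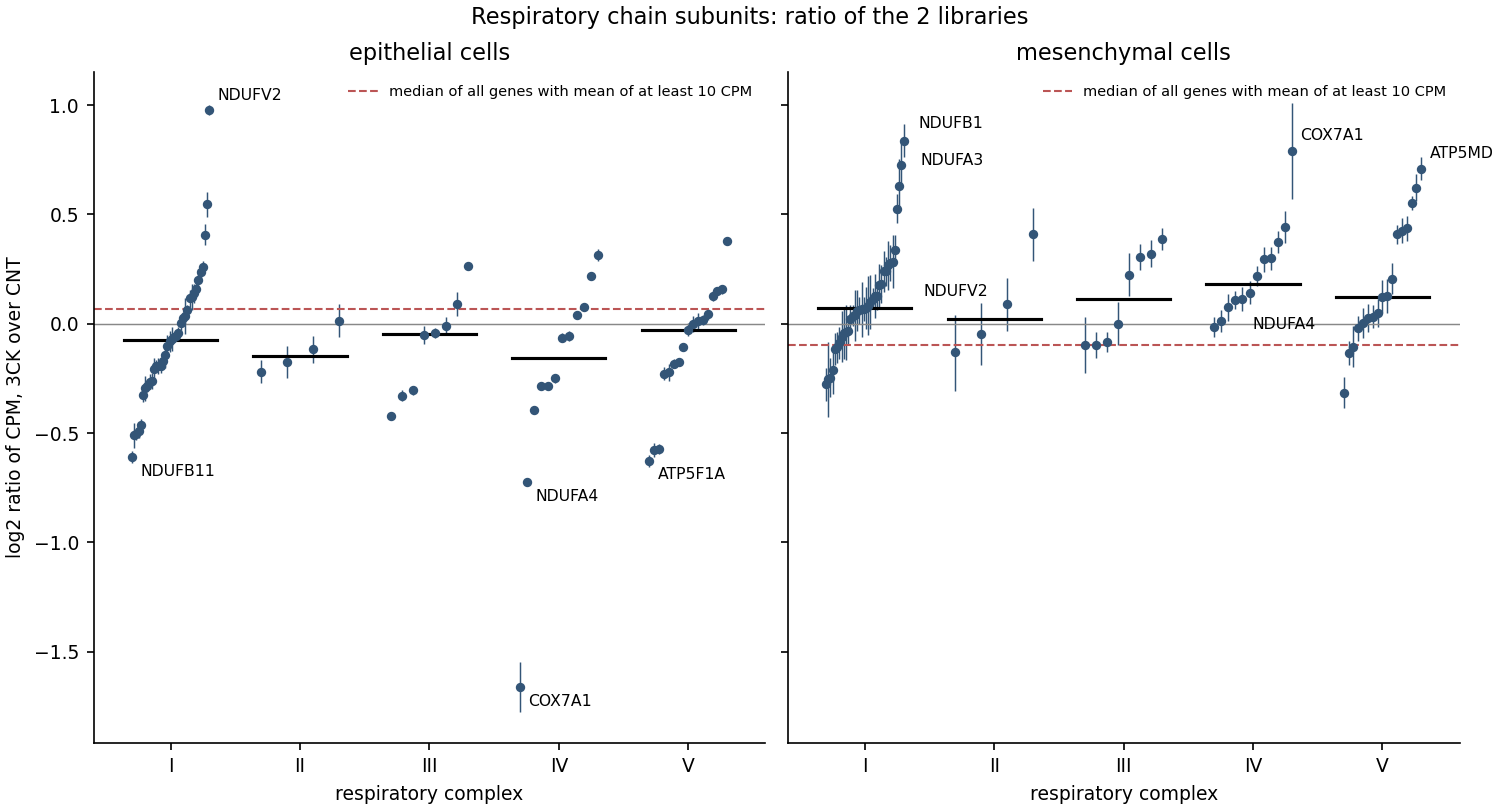
Log2 ratio of CPM, 3CK over CNT, for the subunits with a mean of at least 10 CPM, by respiratory complex, in epithelial (left) and mesenchymal cells (right). Each point is a subunit with its 95% counting interval, black bars are complex medians, and the dashed line is the median of all genes (0.07 and -0.10). COX7A1 (-1.66) and NDUFV2 (0.98) lie farthest from 0 in epithelial cells.

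Complex I, the NADH dehydrogenase, summed to 8565 CPM in CNT and 8149 CPM in 3CK epithelial cells (log2 ratio -0.07) and to 6971 and 7532 CPM in mesenchymal cells (0.11). Its epithelial ratio was 0.04 with at least 100 TTR UMIs per 10000, 0.02 with 10 to 100 and -0.33 under 10, which held 22 CNT cells. Its highest member was NDUFA13, an accessory subunit, at 981 and 806 CPM in epithelial and 556 and 602 CPM in mesenchymal cells. NDUFV2, an iron-sulfur subunit of the NADH-binding module, stood apart upward in the epithelium, at 295 CPM untreated and 581 CPM treated (0.98, 0.95 to 1.00), while it was at 265 and 314 CPM in mesenchymal cells (0.24, 0.17 to 0.31). Its antisense neighbour NDUFV2-AS1 was at 3.88 and 1.70 CPM in epithelial cells, and NDUFB2-AS1 (1.81 and 1.37 CPM) and NDUFA6-DT (1.81 and 1.01 CPM) were also low. No source used here gives the strand setting of the counting, and reads of such overlapping genes may be shared. NDUFA9, an accessory subunit where the arms of the complex meet, was at 58.4 and 85.3 CPM in epithelial (0.55) and 63.2 and 97.7 CPM in mesenchymal cells (0.63). The lowest ratios in epithelial cells were those of NDUFB11 (361 and 236 CPM, -0.61) and NDUFB6 (86.5 and 60.7 CPM, -0.51), both of the membrane arm. In mesenchymal cells NDUFB11 was again lowest (262 and 216 CPM, -0.28), with the core subunit NDUFS1 next (51.0 and 42.8 CPM, -0.25). NDUFB1 (159 and 283 CPM, 0.84) and NDUFA3 (85.2 and 141 CPM, 0.72), small accessory subunits, were highest there, and in epithelial cells they had ratios of 0.26 and 0.16.

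Complex II, succinate dehydrogenase, was the least abundant, at 229 and 207 CPM in epithelial (-0.14) and 273 and 296 CPM in mesenchymal cells (0.12). Its epithelial ratio stayed below 0 in the TTR ranges, at -0.18 for at least 100, -0.16 for 10 to 100 and -0.15 for under 10. The ratios of its 4 genes in the epithelium ran from -0.22 for SDHC and -0.18 for SDHD, the membrane anchors, through -0.12 for SDHB, the iron-sulfur subunit, to 0.01 for SDHA, the flavoprotein, whose interval held 0 (-0.06 to 0.09). In mesenchymal cells SDHB had 73.2 and 97.2 CPM (0.41, 0.29 to 0.53), and the intervals of the other 3 held 0.

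Complex III, which oxidises ubiquinol, summed to 3136 and 2838 CPM in epithelial (-0.14) and 2411 and 2657 CPM in mesenchymal cells (0.14). Its epithelial ratio differed over the TTR ranges, at -0.05 for at least 100, 0.04 (0.01 to 0.06) for 10 to 100 and -0.34 for under 10. UQCRH, the hinge protein and its highest member, stood at 800.2 and 598 CPM in epithelial cells (-0.42) and at 617 and 582 CPM in mesenchymal cells (-0.08). Some of its reads may belong to the copy UQCRHL, listed at 4.72 and 3.45 CPM in the epithelium. UQCRB was at 410.4 and 327 CPM in epithelial cells (-0.33), and UQCR11 went the other way, at 588 and 706 CPM (0.26). UQCR11 (0.39) and UQCRQ (0.32) were highest in mesenchymal cells. UQCRC2, a core protein, differed little in either class (0.09 and -0.10).

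Complex IV, cytochrome c oxidase, had 7346 and 6453 CPM in epithelial cells (-0.19). Its ratios were -0.08 at 100 or more TTR UMIs per 10000, -0.03 at 10 to 100 and -0.30 under 10. Without NDUFA4 it had 6157 and 5733 CPM (-0.10), and that ratio was 0.01, 0.02 and -0.30 in these ranges. In mesenchymal cells it had 5113 and 5760 CPM (0.17). COX4I1, the regulatory subunit, stood at 945 and 775 CPM in epithelial cells (-0.29) and at 595 and 590 CPM in mesenchymal cells (-0.01, -0.06 to 0.03). COX6A1 was at 771 and 586 CPM (-0.40) and COX6B1 at 641 and 539 CPM (-0.25) in epithelial cells. COX5B (535 and 622 CPM, 0.22) and COX7B (257 and 320 CPM, 0.32) were higher in 3CK epithelium, and COX8A was nearly level (447 and 427 CPM, -0.06).

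COX7A1, the isoform known from heart and skeletal muscle, differed most between the classes. It stood at 35.2 CPM in untreated and 11.1 CPM in treated epithelial cells (-1.66, -1.78 to -1.54) and at 19.6 and 33.9 CPM in mesenchymal cells (0.79, 0.57 to 1.01). Its widespread counterpart COX7A2 was far more abundant, at 677 and 714 CPM in epithelial (0.08) and 455 and 590 CPM in mesenchymal cells (0.37). Of the other tissue isoforms, COX7B2 stood at 9.38 and 5.63 CPM and COX8C at 6.05 and 6.56 CPM in epithelial cells. COX6B2, COX6A2 and COX4I2 were each under 1 CPM in both classes, and COX6A2 had 0 UMIs in mesenchymal cells, where 3 UMIs would be 0.153 CPM in CNT and 0.329 CPM in 3CK.

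**Figure D4:**
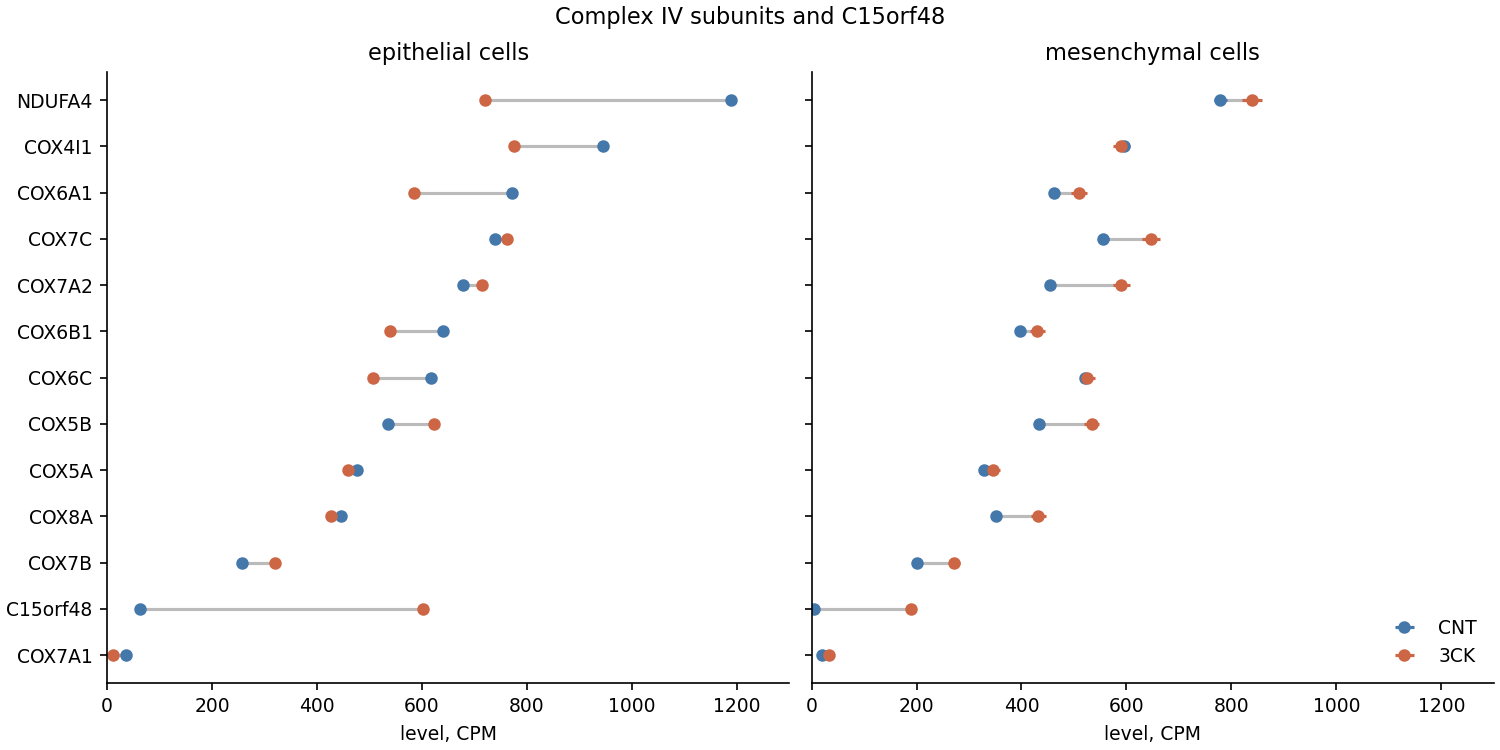
Level in CPM of the complex IV subunits with a mean of at least 10 CPM and of C15orf48 in CNT (blue) and 3CK (orange), in epithelial (left) and mesenchymal cells (right), ordered by their level in CNT epithelial cells, with exact 95% Poisson intervals, most of them narrower than the points. NDUFA4 was the most abundant in CNT epithelium (1188 CPM), while in 3CK epithelium it stood below COX4I1 (775 CPM) and COX7C (761 CPM).

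Complex V, the ATP synthase, was nearly level in epithelial cells, at 7320 and 7079 CPM (-0.05). Its epithelial ratio was 0.04 with at least 100 TTR UMIs per 10000, 0.09 with 10 to 100 and -0.21 under 10. Its mesenchymal ratio was the highest of the complexes, at 6090 and 7291 CPM (0.26). ATP5F1E, the epsilon subunit, was its most abundant member, at 1098 and 1219 CPM in epithelial (0.15) and 945 and 1386 CPM in mesenchymal cells (0.55). ATP5F1A, the catalytic-head subunit alpha, was lower in both classes, at 373 and 242 CPM in epithelial (-0.63, -0.65 to -0.60) and 310 and 249 CPM in mesenchymal cells (-0.31, -0.38 to -0.24). Its partner ATP5F1B, subunit beta, had ratios of 0.04 and 0.03. Of the 3 genes that encode the same ring subunit c, ATP5MC2 stood at 256 and 172 CPM in epithelial cells (-0.58), ATP5MC3 at 565 and 525 CPM (-0.11) and ATP5MC1 at 160 and 160 CPM (-0.00099). In mesenchymal cells their ratios were -0.13, 0.03 and 0.12. The small subunits ATP5MD (360 and 589 CPM, 0.71) and ATP5ME (258 and 397 CPM, 0.62) were highest in mesenchymal cells, and ATP5MD, at 572 and 745 CPM (0.38), also in the epithelium. ATP5IF1, the inhibitor of ATP hydrolysis, was at 817 and 787 CPM in epithelial (-0.05) and 371 and 456 CPM in mesenchymal cells (0.30). COX7A2L, which helps join complexes III and IV, was at 203 and 162 CPM (-0.33) and at 246 and 227 CPM (-0.11). ATP5MGL, the copy of ATP5MG, was at 1.04 and 0.87 CPM in epithelial cells, against 768 and 680.5 CPM of ATP5MG.

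Summed over each class and scaled to all UMIs, the transcripts of mitochondrial DNA, which encodes the other 13 subunits, went the other way from the nuclear sum. They summed to 25649 CPM in CNT and 27041 CPM in 3CK epithelial cells (0.08), and to 47856 and 39232 CPM in mesenchymal cells (-0.29). With the smaller total the epithelial ratio was -0.04, below 0 like that of the nuclear sum. These transcripts were not read in ranges of TTR. In the epithelium 8 were higher and 5 lower, from MT-ATP6 at 2381 and 1888 CPM (-0.33) to MT-ND4L at 103 and 187 CPM (0.86). In mesenchymal cells 8 were lower and 5 higher, with MT-CO3 lowest at 8546 and 5207 CPM (-0.71). All mitochondrial genes together took 2.56% and 2.70% of UMIs in epithelial cells and 4.79% and 3.92% in mesenchymal cells. Taken per cell, their median share was 1.90% and 2.05% in epithelial and 3.06% and 3.40% in mesenchymal cells. The mesenchymal median was thus higher in 3CK, unlike the summed share. Cells over 20% had been removed, so their part in these sums was not tested.

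The proteins that build the complexes gave small ratios of summed CPM. In the epithelium they were 0.11 for the 16 complex I assembly factors, -0.04 for the 4 of complex II, -0.36 for the 6 of complex III, 0.05 for the 25 of complex IV and -0.26 for the 4 of complex V. In mesenchymal cells they were -0.08, 0.07, -0.04, 0.35 and 0.06. With the smaller total the epithelial values for complexes I and IV turned to -0.0064 and -0.07, and with TMM the mesenchymal values for complexes I and III turned to 0.10 and 0.14. Single factors stood out more. UQCC2, a complex III factor, was at 123 and 80.5 CPM in epithelial cells (-0.61), and SCO2, which delivers copper to complex IV, at 51.5 and 78.9 CPM (0.62) in epithelial and 49.3 and 84.9 CPM (0.78) in mesenchymal cells. The ends of the other lists in epithelial cells were ECSIT (-0.24) and TIMMDC1 (0.48) for complex I, SDHAF1 (-0.60) and SDHAF4 (0.50) for complex II, CMC2 (-0.44) for complex IV, and FMC1 (-0.44) and ATPAF1 (-0.04) for complex V. UQCC1, at the upper end for complex III, had 0.23. NDUFAB1, CYC1 and CYCS, which belong to complex I, complex III and the carrier between III and IV but carry other names, had ratios of 0.12, 0.10 and 0.14 in epithelial cells.

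The 13 enzymes of the TCA cycle, which feeds complexes I and II, summed to 784 and 691 CPM in epithelial cells (-0.18), although 8 were higher and 5 lower. SUCLG1, the alpha subunit of succinyl-CoA synthetase, accounted for more than this difference, at 159 and 49.2 CPM (-1.70, -1.75 to -1.64), and at the other end IDH3G had 43.2 and 54.3 CPM (0.33). In mesenchymal cells SUCLG1 was level, at 72.2 and 72.7 CPM (0.01), and the enzymes had a ratio of 0.07. The 10 regulators of mitochondrial gene expression had ratios of 0.13 and -0.10 (0.07 with TMM), with TFB1M, a mitochondrial rRNA methyltransferase, at 16.7 and 27.3 CPM (0.71) and the transcription factor TFB2M at 11.5 and 9.06 CPM (-0.35) in the epithelium. PPARGC1A, a coactivator of mitochondrial genes, was under 1 CPM in both libraries and classes. The 78 mitochondrial ribosomal proteins had ratios of 0.05 (-0.07 with the smaller total) and 0.25, between MRPS26 (277 and 118 CPM, -1.23) and MRPS10 (56.5 and 103 CPM, 0.87) in the epithelium. The 87 genes of the cytosolic ribosome, taken for scale, had -0.23 and -0.27.

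**Figure D5:**
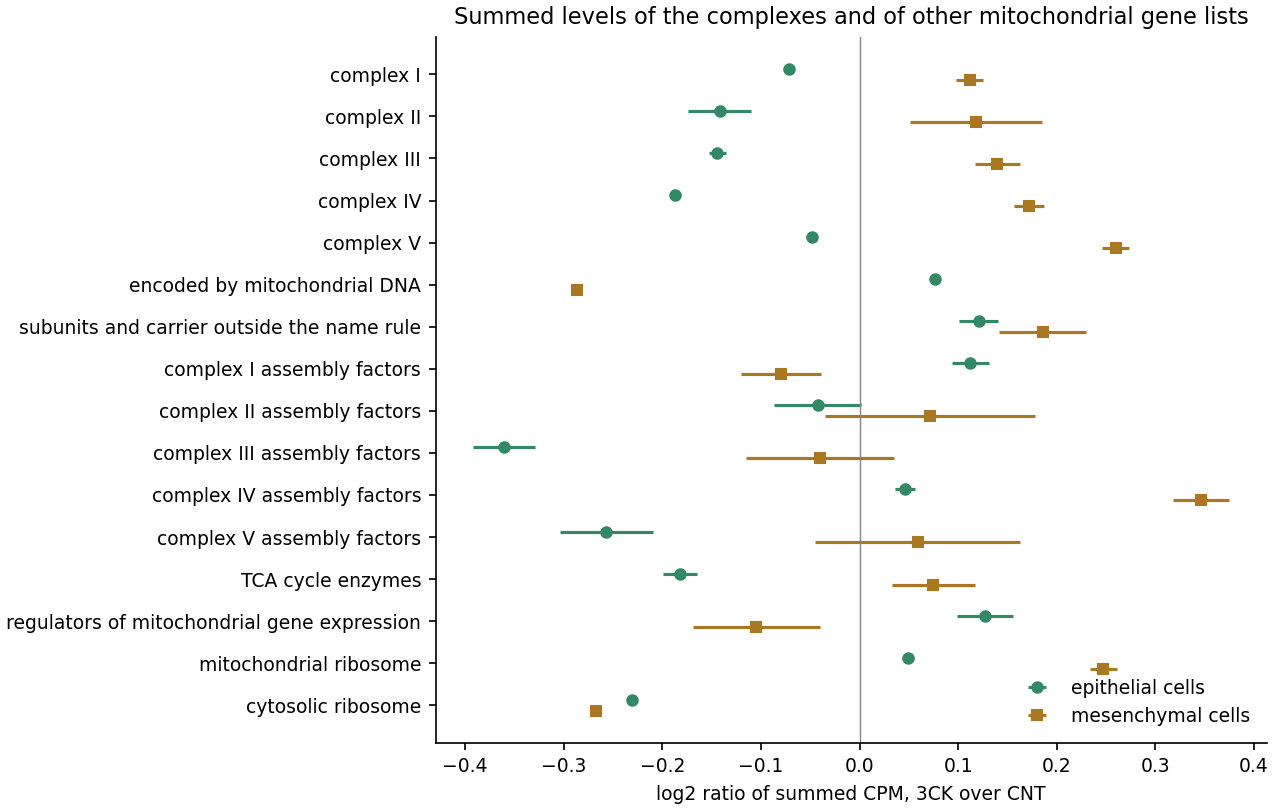
Log2 ratio of summed CPM, 3CK over CNT, for each respiratory complex and for other mitochondrial lists and the cytosolic ribosome, in epithelial (circles) and mesenchymal cells (squares), with 95% counting intervals. The 5 complexes lie below 0 in epithelial and above 0 in mesenchymal cells. As summed and scaled here, the genes of mitochondrial DNA lie on the opposite sides (0.08 and -0.29). With the smaller total their epithelial ratio was -0.04, on the side of the complexes.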

How the data were processed

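The deposited files give raw UMI counts, which the authors obtained with Cell Ranger 7.1.0 on GRCh38, per the submitters' processing notes, from 3′ libraries per the labels' protocols. No source used here gives the annotation release or strand setting. The libraries shared 0 barcodes.

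Barcodes with at least 500 genes and at most 20% mitochondrial UMIs were kept, so that 412 barcodes of CNT and 52 of 3CK failed on genes and 306 and 175 on mitochondrial share alone. The highest Scrublet scores (scanpy 1.11.5) were removed as doublets at 0.8% per 1000 barcodes, 52 in CNT and 16 in 3CK. UMIs were summed per library and class and scaled to CPM. Log2 ratios carry exact binomial intervals of the 3CK share, and levels exact Poisson intervals (scipy 1.17.1). Only the ratio intervals were tried on simulated data, drawn as Poisson counts that hold no spread between cells or cultures. At most 3 UMIs in both libraries gave no ratio. Called means at least 1.5-fold.

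Members, classes, lists and markers were chosen with earlier results of these data known. The text names C15orf48, NDUFA4 and NDUFA4L2, the member of each complex and class with the highest mean CPM, its 2 largest and 2 smallest ratios, the members that differ most between classes, the complex IV isoforms, the ring genes, ATP5IF1, and each list's extremes. A few others (COX7A2L, ATP5F1B, COX7C, SCO2 in mesenchymal cells, SUCLG1 in mesenchymal cells, PPARGC1A, KRT8, KRT18, CXCL10) were chosen after their values were seen. Alternatives covered filters, doublets, depth, scaling (TMM from edgeR 4.0.16, used for its factors alone), cell weight, class limits, cycling and TTR.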

Additional observations from a re-analysis of the deposited data

Results flagged for a closer look

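Some subunits had ratios of opposite direction in the classes, lower in 3CK epithelium and higher in 3CK mesenchymal cells, with counting intervals on either side of 0. None of these differences was tested, since each class of each library is 1 sample. The epithelial minus the mesenchymal log2 ratio was -2.45 for COX7A1, -0.83 for NDUFA4, -0.63 for NDUFB2, -0.61 for UQCR10, -0.61 for ATP5MF and -0.60 for NDUFA6. For the 82 subunits summed it was -0.28. With each cell weighted equally the mesenchymal ratio of NDUFA4 was -0.0040, and in epithelial cells with at least 100 TTR UMIs per 10000 the ratio of the summed subunits was -0.0043. Cells that met neither class limit held C15orf48 at 550.5 CPM in 3CK, against 32.3 CPM in CNT.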

How the results depend on the processing

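Over 63 alternative values of the summed subunits, C15orf48 and NDUFA4 in both classes, 62 kept the sign. The exception was NDUFA4 in mesenchymal cells with each cell weighted equally (-0.0040), and the cause was not tested. Epithelial cells with 10 to 100 TTR UMIs per 10000 were not among these alternatives. There the summed subunits had the other sign (0.03, 0.02 to 0.03). In epithelial cells the log2 ratio of the summed subunits was -0.091 with the stricter filter, -0.074 with TMM, -0.22 with the total lacking mitochondrial, ribosomal and the 50 most abundant genes, -0.099 with equal weight, -0.11 with the stricter class, -0.11 in non-cycling cells, -0.29 with TTR under 10 per 10000, -0.0043 with TTR of at least 100, and -0.094 without cells with collagens, an alternative chosen after seeing the data. NDUFA4 gave -0.69 with TMM, -0.84 with the smaller total, -0.70 with equal weight, -0.31 with TTR under 10 and -0.64 with TTR of at least 100. C15orf48 gave 3.13 with the smaller total, 3.38 with equal weight, 1.29 with TTR under 10 (22 CNT cells) and 3.43 with TTR of at least 100. In mesenchymal cells the summed subunits gave 0.22 with no filter, 0.11 with the stricter filter, 0.35 with TMM, 0.13 with the smaller total, 0.093 with equal weight and 0.19 in non-cycling cells. NDUFA4 there gave 0.15, 0.039, 0.29 and 0.067 with the first 4 of these and 0.16 in non-cycling cells, and C15orf48 gave 3.52 with equal weight. TMM moved the median of all genes in mesenchymal cells from -0.10 to 0.08. With more than 3 UMIs in 1 library in place of a mean of 10 CPM, 6 subunits in place of 4 were at least 1.5-fold lower and 2 in place of 1 higher in epithelial cells, and 1 in place of 0 lower and 7 in place of 6 higher in mesenchymal cells. With a mean of 1 CPM these counts were 5, 1, 1 and 7. The shares of all genes at these looser limits were not counted. Of 231 alternative values for single complexes and genes, 227 kept the sign. The exceptions were complex I (0.04), complex V (0.04) and complex IV without NDUFA4 (0.01) in epithelial cells with TTR of at least 100, and the sum of NDUFA4 and C15orf48 (-0.04) with the smaller total. With TTR of 10 to 100, again not counted here, complexes I (0.02), III (0.04), V (0.09) and IV without NDUFA4 (0.02) were above 0. Complexes II (-0.16) and IV (-0.03) stayed below 0 there. No paired analysis was possible because each group is 1 library with no replicate numbers. The mesenchymal values rest on 124 3CK cells and, for C15orf48 in CNT, on 102 UMIs.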

Other observations

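Some letter motifs, which the name rule did not use, were more frequent in subunit promoters than in all promoters. Most subunit promoters lacked each of them, and the promoters compared were not matched for base content. RefSeq promoters of 300 bases (GRCh38.p14) were found for 68 of the 82 subunits and for 15843 genes in all, and both strands were searched. The letters GCGCNTGCG of NRF1, a regulator of respiratory genes, were in 33.8% of subunit windows and 11.0% of all. CCGGAAG of the ETS family was in 29.4% and 14.2%, and AAGATGGC of YY1 in 16.2% and 3.91%. Motifs for factors that the added cytokines are known to act through had nearer shares. GGNNNTTCC of NF-kB was in 22.1% and 21.7%, TTCNNNGAA of the STAT family in 8.82% and 6.97%, and TTCNNTTTC of the interferon-stimulated response element in 7.35% and 7.06%, where matches of different motifs were each counted even if they overlapped. None of the 6 was in the C15orf48 or NDUFA4 window, which says only that these letters are not there.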
